A study of Mus musculus with 8 samples.

Results

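Elastin, the fibrillins and the proteins bound to fibrillin microfibrils were followed across 8 mouse microarrays of fetal, newborn and adult liver cells and of mesenchymal cells from outside the liver. The 10 genes were taken by name: Eln, Fbn1, Fbn2, Mfap2, Mfap4, Mfap5, Fbln1, Fbln2, Fbln5 and Ltbp2. All 10 were found, through 14 probes, among the 20062 genes that the arrays measured, and each was above background on 1 or more arrays. The rule lists the genes by name and uses no measured value, though the list was drawn up with earlier results of these data known.

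The series belongs to a study of a factor that deactivates fibrogenic hepatic stellate cells. Hepatic stellate cells are sinusoidal pericytes that store vitamin A and, in fibrosis, the main source of scar matrix. Livers of newborns (P1) and of fetuses at 4 stages (E11.5, then E13.5 and E14.5, then E17.5) were digested in 0.05% collagenase, and cells positive for p75NTR (the neurotrophin receptor encoded by Ngfr) and negative for CD45 and Ter119 were sorted. Adult HSC were sorted from adult liver by vitamin A, MEF were cultured fibroblasts of embryonic skin, and MSC were purified mesenchymal stem cells from adult bone marrow. No genotype, strain or treatment is given for any group, and how many animals supplied each array could not be read from the labels. Each of the 8 groups was a single one-colour array (Cy3), so no group has a replicate. The 4 fetal arrays share one slide, and P1, adult HSC, MEF and MSC share the other.

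Elastic fibres consist of an amorphous core of cross-linked elastin laid on a scaffold of fibrillin microfibrils. Fibulins and lysyl oxidases help to place elastin on that scaffold and cross-link it, while microfibril-associated glycoproteins and latent TGF-beta binding proteins decorate the microfibrils and hold growth factors there. In liver these proteins are known from the portal tract, from vessel walls and, in fibrosis, from the septa, and elastin and fibulin-2 are commonly used to tell portal fibroblasts from stellate cells.

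A level here is the log2 processed spot signal minus the log2 75th percentile of that array, so 0 is a signal at that percentile. Levels of different genes come from different probes and were not compared with each other. Folds against a dim spot depend on the background correction: normexp correction, which adds an offset of 50 to each signal, gave smaller folds for many members, and these are given with each comparison. Of the 43020 non-control spots, between 58.8% and 64.5% were well above background on each array, and no spot was saturated. Repeated spots of the same probe had a median SD between 0.0577 and 0.0855 on the log2 scale within an array. Each member probe had 1 spot per array, and with 1 array a group the number of arrays is what limits the precision of every value below. The E11.5 array had a flatter spike-in response, with a slope of 0.849 against 0.922 to 0.933 on the other arrays. Arrays of sorted populations average over their cells, so fewer cells of a type and less RNA per cell cannot be told apart.

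The labelled cell types were set against marker lists of 8 genes each. All 8 stellate markers, Ngfr, Des, Lrat, Reln, Hand2, Colec10, Colec11 and Lhx2, were above background on the 6 liver arrays. Their summed signal, in multiples of the array's 75th percentile, lay between 119 and 274 on the p75NTR arrays and was 650 in adult HSC, against 3.29 in MEF and 0.200 in MSC. Ngfr itself had levels from 3.24 to 4.97 on the p75NTR arrays and 6.42 in adult HSC. No marker list for MEF or MSC was used. The collagen gene Col1a1, chosen for this check after its values were seen, stood at 4.31 in both. Markers of other cells were also present, and they are given beside the results they accompany.

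For 6 members the RefSeq promoter table (mouse build GRCm38.p6) gave windows of 250 bases before the start, some with more than 1 start. Of these windows 5 are printed because their genes show the different patterns described below: Ltbp2 and Fbn1, higher at each successive stage, Mfap2 and Fbln2, each less than 4-fold apart between E11.5 and P1 and low in adult HSC, and Fbln5, the member as high in adult HSC as at P1. Each runs 5' to 3' on the gene's own strand and ends at the base before the annotated start. Capitals mark GC boxes (GGGCGG on either strand), the motif class bound by Sp1.
Ltbp2 (chr12:84876492-84876741, minus strand): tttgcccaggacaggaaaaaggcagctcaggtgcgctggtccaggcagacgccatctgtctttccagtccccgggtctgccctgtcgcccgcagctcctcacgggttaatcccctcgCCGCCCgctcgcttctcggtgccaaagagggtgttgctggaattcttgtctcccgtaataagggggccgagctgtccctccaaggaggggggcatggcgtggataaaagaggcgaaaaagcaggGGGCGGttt
Fbn1 (chr2:125506439-125506688, minus strand): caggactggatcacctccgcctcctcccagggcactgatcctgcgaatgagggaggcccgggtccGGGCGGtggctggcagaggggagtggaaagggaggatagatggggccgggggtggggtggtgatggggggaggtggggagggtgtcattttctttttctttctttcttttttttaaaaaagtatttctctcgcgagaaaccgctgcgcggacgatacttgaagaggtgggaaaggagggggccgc
Mfap2 (chr4:141010431-141010680, plus strand): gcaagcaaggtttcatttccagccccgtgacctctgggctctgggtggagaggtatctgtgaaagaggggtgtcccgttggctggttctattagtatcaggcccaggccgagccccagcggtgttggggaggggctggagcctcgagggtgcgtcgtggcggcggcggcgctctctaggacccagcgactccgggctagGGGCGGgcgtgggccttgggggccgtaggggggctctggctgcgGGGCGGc
Fbln2 (chr6:91212514-91212763, plus strand): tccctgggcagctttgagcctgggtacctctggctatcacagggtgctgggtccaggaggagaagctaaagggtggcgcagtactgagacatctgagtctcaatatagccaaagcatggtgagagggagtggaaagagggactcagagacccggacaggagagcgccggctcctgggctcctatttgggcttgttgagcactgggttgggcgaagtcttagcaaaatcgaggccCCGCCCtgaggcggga
Fbln5 (chr12:101819120-101819369, minus strand): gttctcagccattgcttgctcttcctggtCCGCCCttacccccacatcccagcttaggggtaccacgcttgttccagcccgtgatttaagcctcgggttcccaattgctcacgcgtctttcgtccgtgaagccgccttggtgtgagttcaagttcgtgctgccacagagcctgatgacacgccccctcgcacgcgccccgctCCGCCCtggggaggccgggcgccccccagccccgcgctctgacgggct

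All 5 windows hold a GC box: Ltbp2, Mfap2 and Fbln5 hold 2, and Fbn1 and Fbln2 hold 1. Of 32851 mouse promoter windows of the same length, 32.7% hold at least 1. Their GC content was 58.8% in Fbln2, 59.2% in Fbn1, 61.6% in Ltbp2, 65.2% in Fbln5 and 68.8% in Mfap2, against a median of 52.4% over all windows. The other 4 motifs were also searched on both strands, and none of the 5 motifs holds another: the TATA box TATAAA (12.4% of all windows), the AP-1 site TGANTCA (6.75%), the TEAD site CATTCC (12.6%) and the CArG box bound by serum response factor (1.47%). None of these letters occurs in the 5 printed windows, which says nothing about the factors. The second windows of Mfap2 and Fbln5, at other starts, hold no GC box, and that of Mfap2 holds 1 TEAD site. Fbln1 has a pair of windows that are not printed, and 1 of them holds a GC box. No window is printed for Eln, Fbn2, Mfap4 and Mfap5 either.

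Eln encodes tropoelastin, the soluble monomer of the elastin core. Its level was -3.68 at E11.5, -1.65 at E13.5, -1.79 at E14.5, 1.95 at E17.5 and 4.11 at P1, then -2.28 in adult HSC, 1.70 in MEF and -5.60 in MSC. P1 was thus the highest of the 8 arrays, as for 8 of the members and 10.9% of 16440 genes, and MSC the lowest. Most of the difference across stages lay after E14.5: E17.5 was 13.3-fold above E14.5, and P1 was 4.495-fold above E17.5. Adult HSC stood 84.0-fold below P1, and 2.64-fold above E11.5 (1.23-fold with normexp).

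Fbn1 encodes fibrillin-1, the main microfibril subunit of postnatal tissue and the gene mutated in Marfan syndrome. Its levels were 0.87, 1.37, 1.66, 3.27 and 3.46 from E11.5 to P1, 2.01 in adult HSC, 3.17 in MEF and 0.12 in MSC. Each stage was higher than the one before, as for Ltbp2 among the members and for 3.25% of genes above background at all 5 stages, though P1 exceeded E17.5 by only 0.19. With adult HSC 2.74-fold below P1, the Fbn1 level of the adult cells was above those of E11.5, E13.5 and E14.5.

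Fbn2 encodes fibrillin-2, the fibrillin typical of fetal tissue. Its levels were 4.05, 3.82, 3.27, 3.99 and 4.26 from E11.5 to P1, -5.24 in adult HSC, 3.87 in MEF and -5.39 in MSC. The p75NTR arrays and MEF lay within 1 log2 unit of each other, and adult HSC and MSC formed a separate low pair. Adult HSC was 724-fold below P1. The gene's other probe read 2.86, 2.59, 1.86, 2.66 and 3.25 over the stages and 2.69 in MEF, and was not well above background in adult HSC and MSC. In adult HSC, Fbn1 thus lay within its range over the stages and Fbn2 far below its own.

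**Figure D1:**
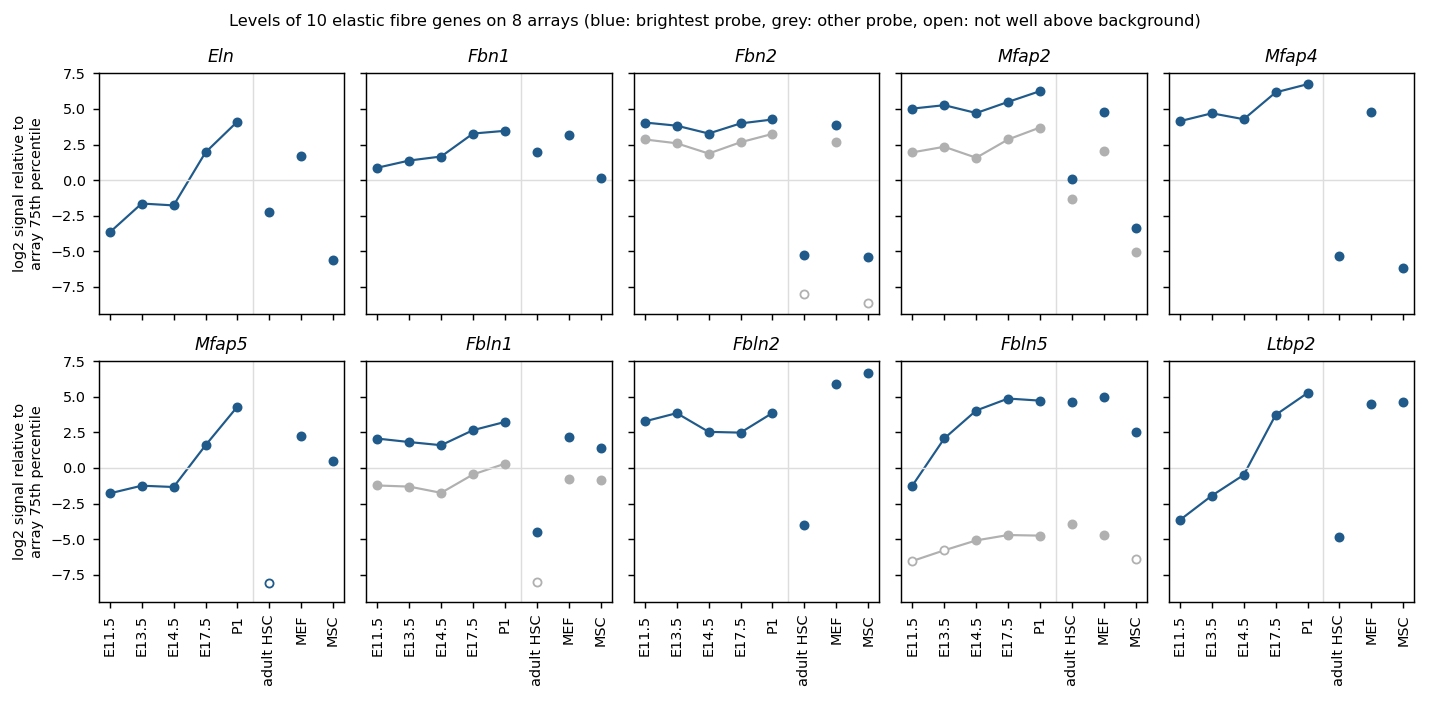
Levels of the 10 genes on the 8 arrays, as log2 signal relative to the array's 75th percentile, with 1 panel a gene and 1 point an array. Blue points are the brightest probe, grey points the other probe where a gene has one, open points are not well above background, and lines join the 5 p75NTR stages. The P1 point is the highest blue point in 8 of the 10 panels, all but Fbln2 and Fbln5, and the adult HSC or MSC point is the lowest in 9.

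Mfap2 and Mfap5 encode MAGP-1 and MAGP-2, small glycoproteins that bind fibrillin. Mfap2 read 5.03, 5.27, 4.72, 5.50 and 6.26 from E11.5 to P1, 0.07 in adult HSC, 4.80 in MEF and -3.41 in MSC. Its second probe gave the same order at the ends, from 1.95 at E11.5 to 3.70 at P1 and down to -1.32 in adult HSC and -5.07 in MSC. Mfap2 was thus high at every stage and in MEF, and low in the adult liver and marrow cells.

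Mfap5 read -1.79, -1.25 and -1.34 at the first 3 stages, 1.60 at E17.5 and 4.32 at P1. In adult HSC its probe was not well above background, which puts the adult cells at least 1228-fold below P1 and at least 17.9-fold below E11.5 on the processed signals, but 119-fold and 2.74-fold below with normexp. MEF stood at 2.25 and MSC at 0.52, both within its range over the stages. For such a probe the bound takes the lowest signal well above background on the dim array.

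Mfap4 encodes a fibrinogen-like protein that binds elastin and fibrillin and is abundant in vessel walls. It read 4.14, 4.70, 4.28, 6.17 and 6.75 from E11.5 to P1, -5.35 in adult HSC, 4.80 in MEF and -6.16 in MSC. Adult HSC was 4386-fold below P1, the largest fold among the members above background on both arrays. Like Fbn2 and Mfap2, Mfap4 had all p75NTR arrays and MEF on one side and adult HSC and MSC on the other.

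Fbln1, Fbln2 and Fbln5 encode fibulins, calcium-binding glycoproteins that link elastin, fibrillin and basement membranes. Fbln1 read 2.07, 1.83, 1.60, 2.66 and 3.24 from E11.5 to P1, -4.48 in adult HSC, 2.15 in MEF and 1.41 in MSC. Adult HSC was the outlying value, 211-fold below P1, and the gene's other probe was not well above background there. The remaining 7 arrays spanned less than 2 log2 units.

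Fbln2 read 3.28, 3.86, 2.54, 2.49 and 3.87 from E11.5 to P1, -4.02 in adult HSC, 5.88 in MEF and 6.72 in MSC. MEF and MSC were the highest arrays, and adult HSC was the lowest. No direction ran across the stages, since E13.5 and P1 were about equal and E14.5 and E17.5 lay below both.

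Fbln5 encodes the fibulin that binds tropoelastin and integrins at the cell surface. It read -1.24 at E11.5, 2.08 at E13.5, 4.05 at E14.5, 4.89 at E17.5, 4.74 at P1, 4.67 in adult HSC, 5.01 in MEF and 2.55 in MSC. The earliest stage was the lowest array, and the 4 arrays E17.5, P1, adult HSC and MEF lay together between 4.67 and 5.01. The dimmer Fbln5 probe read between -6.54 and -3.98, and was not well above background at E11.5, E13.5 and in MSC. The fold of P1 over E11.5 therefore rests on the brighter probe. On the dimmer probe P1 lay 1.78 log2 units above E11.5, which is under 4-fold. Its slope per stage, fitted below, was 0.46, against 1.48 on the brighter probe. Over the 8 arrays, readings below background included, the 2 probes of a gene had r of 0.9996 for Fbn2, 0.992 for Mfap2, 0.990 for Fbln1 and 0.854 for Fbln5.

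Ltbp2 encodes a latent TGF-beta binding protein that does not bind TGF-beta itself and associates with fibrillin-1 and fibulin-5. It read -3.66, -1.95, -0.49, 3.74 and 5.28 from E11.5 to P1, -4.83 in adult HSC, 4.49 in MEF and 4.67 in MSC. Every stage was above the one before, and E17.5 was 18.7-fold above E14.5. Adult HSC lay outside that range, 1106-fold below P1 and 2.25-fold below E11.5 (1.44-fold with normexp).

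The course over the 5 p75NTR stages was fitted with limma as a slope on stage order, in log2 units per stage, with p-values adjusted over all 15459 genes tested. None of the 10 genes had an adjusted p under 0.05, and neither did any gene tested (0% called). With 5 arrays and no replicates the lowest adjusted p of all genes was 0.0579, which Ltbp2 shared. Before adjustment, 6 of the 10 genes had a positive slope with limma p under 0.05, Eln, Fbn1, Mfap4, Mfap5, Fbln5 and Ltbp2, beside 12.4% of all genes in that direction, and none had a negative one, beside 15.7% (28.1% in either direction). P1 was the highest of the 5 stages in 9 of 10 genes, all but Fbln5, and in 24.6% of all genes. The slope was above 0 in 9 of 10 genes and in 45.3% of all genes, and its median was 0.69 over the 10 genes and -0.03 over all.

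The steepest slopes were those of Ltbp2, 2.36 ± 0.22 (SE; limma, n = 5 arrays, adjusted p = 0.0579), and Eln, 1.92 ± 0.26 (adjusted p = 0.0655 by limma). Mfap5 had a slope of 1.505 ± 0.32 and Fbln5 of 1.48 ± 0.32, with limma adjusted p of 0.0845 and 0.0863. Fbn1 had a smaller slope of 0.71 ± 0.11 (limma adjusted p = 0.0687), and Mfap4 one of 0.67 ± 0.16 (limma adjusted p = 0.0972). The slopes of Fbln1, 0.32 ± 0.14, Mfap2, 0.27 ± 0.13, Fbn2, 0.06 ± 0.12, and Fbln2, -0.02 ± 0.21, had limma adjusted p between 0.221 and 0.960. Fbn2 and Mfap2 thus stood high in their own range from E11.5 on, whereas Eln and Ltbp2 had their lowest level of the 5 stages at E11.5.

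Genes with an adjusted p under 0.05 depended on the setting. When only genes above background on all 5 arrays were tested, limma gave adjusted p of 0.0341 for Ltbp2, 0.0393 for Eln and 0.0409 for Fbn1, and Ltbp2 also reached 0.0463 with quantile normalization. Under the 15 alternatives run for each gene, the limma adjusted p of Ltbp2 ranged from 0.0233 to 0.228, of Eln from 0.0304 to 0.327, of Fbn1 from 0.0304 to 0.453 and of Mfap5 from 0.0489 to 0.350.

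**Figure D2:**
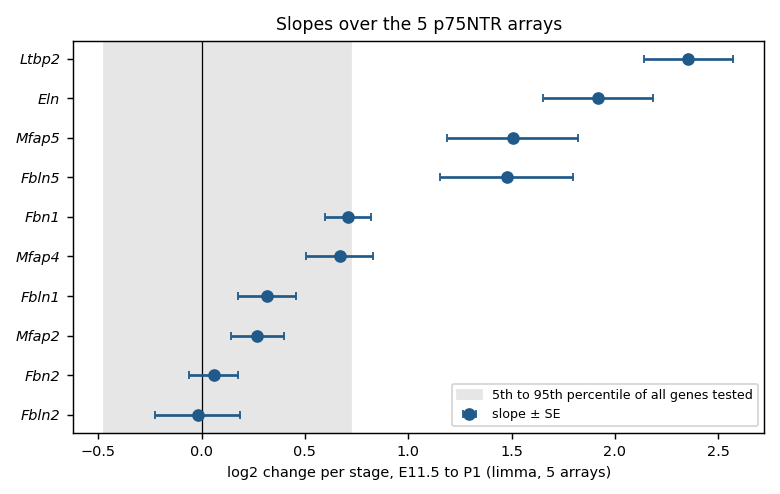
Slopes of the 10 genes over the 5 p75NTR stages, in log2 units per stage, with points for limma estimates and bars for 1 SE. The grey band spans the 5th to the 95th percentile of the slopes of all 15459 genes, -0.47 to 0.72. Ltbp2, Eln, Mfap5 and Fbln5 lie to the right of the band and the other 6 genes inside it.

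P1, the last stage of the sort, was set against E11.5, the first, without a test because each is 1 array. At least 4-fold higher at P1 were 6 of the 10 genes, beside 9.7% of 14893 genes compared. They were Ltbp2 (491-fold), Eln (222-fold), Mfap5 (68.8-fold), Fbln5 (62.9-fold), Mfap4 (6.07-fold) and Fbn1 (6.05-fold). The other members were also higher, Mfap2 by 2.34-fold, Fbln1 by 2.25-fold, Fbln2 by 1.51-fold and Fbn2 by 1.16-fold. No member was at least 4-fold lower, beside 4.21% of genes. With normexp the same 6 genes were at least 4-fold higher, but Ltbp2 by 143-fold, Eln by 50.2-fold, Mfap5 by 43.4-fold and Fbln5 by 44.9-fold. On its dimmer probe Fbln5 did not reach 4-fold, with a log2 difference of 1.78.

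P1 and E11.5 lie on different slides, and in that pair the stage cannot be told apart from the slide. E17.5 and E11.5 share a slide, and there the same 6 genes were at least 4-fold higher at E17.5, beside 7.37% of 14377 genes (5.04% lower): Ltbp2 168-fold, Fbln5 69.7-fold, Eln 49.3-fold, Mfap5 10.4-fold, Fbn1 5.30-fold and Mfap4 4.07-fold. With normexp the folds of Ltbp2, Eln and Mfap5 there were 47.5, 11.99 and 6.78. Within the 4 fetal arrays alone the slopes were 2.36 for Ltbp2, 2.03 for Fbln5, 1.67 for Eln, 1.01 for Mfap5, 0.75 for Fbn1 and 0.57 for Mfap4, with limma adjusted p between 0.0965 and 0.277. The slope of Fbn2 turned to -0.07 in those 4 arrays.

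The steps between stages were unequal, also in time, and that from E14.5 to E17.5 is the longest between fetal stages. The slope on stage order counts all steps alike. From E11.5 to E13.5 Fbln5 was 9.97-fold and Eln 4.07-fold higher, beside 3.21% of genes at least 4-fold higher. No member differed by 4-fold between E13.5 and E14.5 (3.66% of genes higher). From E14.5 to E17.5 Ltbp2, Eln and Mfap5 (7.64-fold) were at least 4-fold higher, beside 2.54% of genes, and from E17.5 to P1 Mfap5 (6.60-fold) and Eln were, beside 3.83%. In 8 of 10 genes, all but Fbln2 and Fbln5, the step from E14.5 to E17.5 was the largest upward one, as it was in 25.8% of genes. No member was 4-fold lower at any of the 4 steps, beside 2.36%, 1.45%, 4.67% and 1.21% of genes in their order.

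Summed markers of portal fibroblasts and smooth muscle were higher at P1 than at E11.5, and those of mesothelial cells were not. The summed signal of the 8 portal fibroblast markers, a list with no member gene in it, was 7.38, 8.24, 8.62, 29.8 and 91.6 from E11.5 to P1. Of these markers 6 were above background at E11.5, E13.5 and E14.5, 7 at E17.5 and all 8 at P1, with Col15a1 and Dpt below background at the first 3 stages. Smooth muscle markers summed to 71.0, 44.1, 124, 246 and 370, and the contractile gene Lmod1 was below background up to E14.5. Stellate markers summed to 125, 120, 212, 274 and 119, so their sum at P1 was no higher than at E11.5. The median difference of the 8 stellate markers between these 2 arrays was 0.38. Of them 1, Lrat (23.4-fold), was at least 4-fold higher at P1, beside 9.7% of all genes, and none was lower, beside 4.21%. The part of portal fibroblasts or smooth muscle in the stage differences of the members was not tested.

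Cells of other lineages differed between these arrays as well. Acinar pancreas markers summed to 0.633, 0.512, 0.815, 3.23 and 49.6 over the stages, with 7 of 8 above background at P1. Hepatocyte markers were highest at E14.5, at 1033, and erythroid markers at E17.5, at 211. Endothelial markers summed to between 14.7 and 39.6 over the stages, with 16.4 at E11.5 and 15.6 at P1. Plvap dominates these sums too, and 3 of the 8 markers were at least 4-fold lower at P1 than at E11.5. Leukocyte markers summed to at most 1.63 on the liver arrays, with Ptprc, the gene of the CD45 used in the sort, below background on all of them. Their part in the members' differences was not tested.

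**Figure D3:**
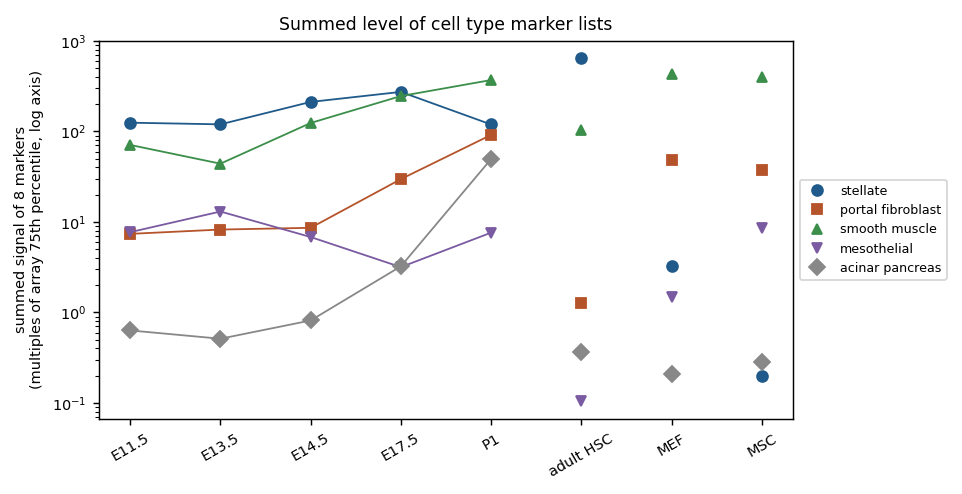
Summed signal of 5 marker lists of 8 genes on each array, in multiples of the array's 75th percentile, on a log axis. Portal fibroblast markers (orange squares) run from 7.38 at E11.5 to 91.6 at P1 and lie at 1.26 in adult HSC, whereas stellate markers (blue circles) are highest in adult HSC, at 650.

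Adult HSC were then set against P1, both on the second slide. The P1 array also enters the comparison with E11.5, so the differences from it share that array. The populations differ in age and in sort, vitamin A in one and p75NTR in the other, and neither can be told apart from the difference. At least 4-fold lower in adult HSC were 8 of 10 genes, beside 15.9% of 14901 genes compared, and none was at least 4-fold higher, beside 5.22%. The median difference was -7.81 log2 units over the 10 genes and -0.06 over all genes. The measured folds below P1 were 4386 for Mfap4, 1106 for Ltbp2, 724 for Fbn2, 238 for Fbln2, 211 for Fbln1, 84.0 for Eln and 72.8 for Mfap2, and Mfap5 lay at least 1228-fold below. With normexp the same 8 genes were at least 4-fold lower, by smaller folds: 550 for Mfap4, 206 for Ltbp2, 119 for Mfap5, 67.6 for Fbn2, 62.5 for Mfap2, 58.9 for Fbln2, 40.9 for Eln and 35.5 for Fbln1.

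Fbn1 and Fbln5 were the 2 exceptions. Fbn1 was 2.74-fold lower in adult HSC, and Fbln5 was 1.05-fold lower, a difference of -0.07. With median normalization, or with Fbln5's other probe, the Fbln5 difference became 0.72 or 0.78 in the other direction. The count of 8 genes did not change under any of the 6 other ways of computing the levels.

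Adult HSC lay below all 5 p75NTR arrays for 7 of 10 genes, Fbn2, Mfap2, Mfap4, Mfap5, Fbln1, Fbln2 and Ltbp2, beside 34.8% of 15692 genes, and above all 5 for none, beside 27.7%. Eln, Fbn1 and Fbln5 were within the range of the stages. On the same arrays the summed stellate markers were 650 in adult HSC and 119 at P1, portal fibroblast markers 1.26 and 91.6, smooth muscle markers 104 and 370, mesothelial markers 0.104 and 7.61, and acinar markers 0.366 and 49.6. Hepatocyte markers summed to 2.999 and 70.3 and erythroid markers to 0.113 and 18.99 in that order. Endothelial markers summed to 213 in adult HSC and 15.6 at P1, but Plvap dominates that sum, at 7.72 and 3.67. The median difference of the 8 endothelial markers was -0.54, with 2 at least 4-fold higher in adult HSC and 1 at least 4-fold lower. Pi16, Dpt and Col15a1 of the portal list, and Cnn1, Lmod1, Actg2 and Myocd of the smooth muscle list, were not above background in adult HSC. The part of these cell types in the members' differences was not tested.

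**Figure D4:**
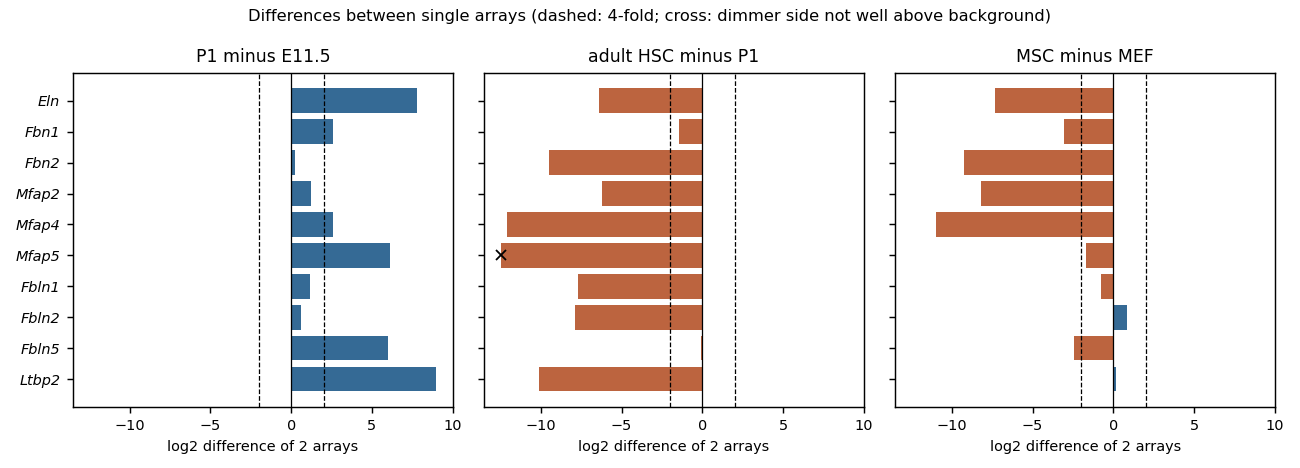
Differences of the 10 genes between single arrays, in log2 units, for P1 minus E11.5, adult HSC minus P1 and MSC minus MEF. Dashed lines mark 4-fold, blue bars are higher and orange bars lower in the array named first, and the cross marks a bar whose dimmer side was not well above background. All 10 bars point up in the left panel and down in the middle panel, where those of Fbn1 (-1.45) and Fbln5 (-0.07) stay inside the 4-fold lines.

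The 6 liver arrays together were compared with MEF and MSC by limma over 16440 genes, of which 259 (1.58%) had an adjusted p under 0.05. None of the 10 genes did, and none had an unadjusted p under 0.05, as 19.6% of genes had. Ltbp2 had the largest difference, -4.90 ± 2.66 (SE; limma, adjusted p = 0.344), and Fbln2 one of -4.29 ± 1.99 (limma adjusted p = 0.285). Mfap4 differed by 4.13 ± 3.70, Mfap2 by 3.78 ± 2.25 and Fbn2 by 3.12 ± 3.12 toward the liver arrays, with limma adjusted p from 0.383 to 0.593. Each side of this comparison mixes arrays that lie far apart. For all members but Mfap5, Fbln2 and Ltbp2, MEF and MSC differed from each other by more than the means of the sides did.

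Fbln2 was the only member whose 6 liver arrays all lay below MEF and MSC, as they did for 10.5% of genes, and no member had them all above, as 12.8% did. Leaving out adult HSC gave Fbln2 a difference of -3.09 with a limma adjusted p of 0.0324, the only member call in this comparison over the 19 alternatives run. In those alternatives its limma adjusted p ranged up to 0.754.

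MSC were set against MEF as the pair of populations from outside the liver, both on the second slide and with no test. At least 4-fold lower in MSC were 6 of 10 genes, beside 15.7% of 15166 genes, and none was at least 4-fold higher, beside 3.2%. Mfap4 was 1999-fold lower, Fbn2 613-fold, Mfap2 297-fold, Eln 158-fold, Fbn1 8.28-fold and Fbln5 5.52-fold. With normexp the same 6 genes were at least 4-fold lower, Mfap4 by 186-fold, Mfap2 by 112-fold, Fbn2 by 68.2-fold and Eln by 18.3-fold. Mfap5 was 3.31-fold and Fbln1 1.68-fold lower, whereas Fbln2 was 1.79-fold and Ltbp2 1.13-fold higher. With median normalization Fbln5 no longer reached 4-fold, at -1.85, and with quantile normalization Ltbp2 was 0.07 lower. The culture of MEF and the purification of MSC differ between the populations and cannot be told apart from the cell type.

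MEF lay 5.33-fold below P1 for Eln, 4.21-fold below for Mfap5 and 4.01-fold above for Fbln2. Portal fibroblast markers summed to 47.8 in MEF and 37.8 in MSC, smooth muscle markers to 434 and 404, and mesothelial markers to 1.48 and 8.58. In MSC single genes dominate 2 of these sums, Cd34 (5.10) the portal one and Msln (2.83) the mesothelial one. At least 4-fold lower in MSC were 4 of 7 portal, 3 of 8 smooth muscle and 6 of 8 mesothelial markers (15.7% of all genes). At least 4-fold higher were 1 portal, 0 smooth muscle and 1 mesothelial marker (3.2% of all genes). Leukocyte markers summed to 14.3 in MEF, with all 8 above background, and to 0.891 in MSC. Their part in the difference between MEF and MSC was not tested.

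Across all 8 arrays the 10 genes had different profiles. MSC was the lowest array for 5 of them, Eln, Fbn1, Fbn2, Mfap2 and Mfap4 (27.9% of genes), adult HSC for 4, Mfap5, Fbln1, Fbln2 and Ltbp2 (23.2%), and so one of the 2 for 9 of 10 (51% of genes). Over the 45 pairs of genes, Pearson's r had a median of 0.54 and ranged from -0.20 (Fbln2 with Fbln5) to 0.99 (Fbn2 with Mfap4), and 41 pairs were above 0. These are descriptions over 8 arrays that share slides and populations, with no test. Mfap2 followed the same profile, with r of 0.969 to Mfap4 and 0.958 to Fbn2. Eln and Fbn1 had r of 0.968, and Mfap5 had r of 0.907 with Fbln1 and 0.874 with Ltbp2. The levels of the first group separate adult HSC and MSC from all others, those of Eln and Fbn1 are high at E17.5, P1 and MEF, and those of Mfap5, Fbln1 and Ltbp2 are low in adult HSC but not in MSC.

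The genes most like Eln, Fbn1 and Fbn2 were taken among 14072 genes above background on at least 4 arrays, the members left out. Those most like Eln were Col6a2, a chain of type VI collagen (r = 0.973), S100b, a calcium-binding protein (r = 0.973), and Chgb, chromogranin B (r = 0.971). Like Eln, Col6a2 read 1.69 at E11.5, 4.96 at P1, 1.996 in adult HSC and 0.66 in MSC. Fbn1 was matched most closely by Stac3 (r = 0.960), Fam131a (r = 0.960) and Col5a1, a chain of type V collagen (r = 0.959), which read 3.52 at E11.5, 5.65 at P1 and 3.17 in MSC. Fbn2 was matched by Fxyd6 (r = 0.998), Ptprd (r = 0.996) and Sfrp1, a secreted Wnt antagonist (r = 0.992). For each of these, adult HSC and MSC lay far below the other arrays. Their Spearman rank correlations with Fbn2 were lower, 0.929, 0.762 and 0.762. Fxyd6 read 4.61 at E11.5, 5.34 at P1, -4.29 in adult HSC, 4.41 in MEF and -4.33 in MSC, so its low pair was that of Fbn2.

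Lysyl oxidases cross-link elastin and collagen. Of the 5 enzymes Lox and Loxl1 to Loxl4, none had an adjusted p under 0.05 over the stages. A positive slope with an unadjusted limma p under 0.05 was found for 4, beside 12.4% of all genes. Lox had a slope of 0.81 ± 0.08 and Loxl4 of 1.101 ± 0.11, both with a limma adjusted p of 0.0579. At P1, 3 of 5 were at least 4-fold above E11.5 (9.7% of all genes), among them Lox (8.83-fold) and Loxl4 (at least 8.68-fold). In adult HSC 2 of 5 were at least 4-fold below P1, beside 15.9% of all genes: Lox by at least 144-fold and Loxl1 by 5.58-fold. Loxl4 was 9.44-fold above P1, the 1 enzyme at least 4-fold higher, beside 5.22% of all genes. Lox and Loxl1 thus accompanied the low members in the adult cells, and Loxl4 did not.

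Other fibulins and latent TGF-beta binding proteins numbered 7, and none had an adjusted p under 0.05 over the stages. Of these, 2 had a positive slope with an unadjusted limma p under 0.05, beside 12.4% of all genes. Ltbp4, which binds fibulin-5 and helps it to deposit elastin, had a slope of 0.96 ± 0.11 (limma adjusted p = 0.0579) and was 11.7-fold higher at P1 than at E11.5. Ltbp3 had a slope of 0.64 ± 0.11 (limma adjusted p = 0.0750) and was 6.77-fold higher. None of the 7 was at least 4-fold lower in adult HSC than at P1, beside 15.9% of all genes. Efemp1 (fibulin-3) and Fbln7 were higher, by 86.7-fold and 7.34-fold, beside 5.22% of all genes at least 4-fold higher. Ltbp4 read 6.92 at P1 and 7.14 in adult HSC. Ltbp4 and Fbln5, both proteins of elastin deposition, were within 1.17-fold of their P1 level in adult HSC, where Eln was 84.0-fold below its own.

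A list of emilins, multimerins and ADAMTS-type proteins of the microfibril, with Mfap1a, Mfap3 and Mfap3l added, had 13 genes measured. None had an adjusted p under 0.05 over the stages. At an unadjusted limma p under 0.05, 4 had a positive slope, beside 12.4% of all genes, and 1 a negative one, beside 15.7%. Adamtsl4, which binds fibrillin-1, had a slope of 1.34 ± 0.20 (limma adjusted p = 0.0672), and Mmrn1 one of -1.16 ± 0.33 (limma adjusted p = 0.119). In adult HSC 1 of 11 compared was at least 4-fold above P1, beside 5.22% of all genes. At least 4-fold below P1 were 3, beside 15.9% of all genes. Emilin2 lay at least 365-fold below P1 and Adamts17 at least 74.4-fold below.

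Among the 7 elastases, Mmp7 was not above background on any array and 4 could be fitted over the stages. Of these, 3 had a positive slope with an unadjusted limma p under 0.05, beside 12.4% of all genes. Among them was Ctsk, cathepsin K, with 0.90 ± 0.11 (limma adjusted p = 0.0579) and a level 13.99-fold higher at P1 than at E11.5. Ctss, cathepsin S, had a slope of 0.78 ± 0.19 (limma adjusted p = 0.0951), with its probe below background up to E14.5. Mmp2, a gelatinase that also cleaves elastin, was 4.02-fold lower in adult HSC than at P1 and at least 800-fold lower in MSC than in MEF.

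The list of cell receptors held 9 genes of integrin subunits, and 8 could be fitted over the stages. Of these, 1 had a positive slope at an unadjusted limma p under 0.05, beside 12.4% of all genes, and none after adjustment. None differed by 4-fold between P1 and E11.5, beside 9.7% of all genes higher at P1 and 4.21% lower. Itgb3 was 9.26-fold higher in adult HSC than at P1. Itgb6 was below background on all 6 liver arrays. It differed by -3.66 ± 0.53 between liver and other arrays (limma adjusted p = 0.0225), with a bound of at least 3.79-fold lower. No other gene of these 5 lists was called in that comparison, beside 1.58% of all genes.

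**Figure D5:**
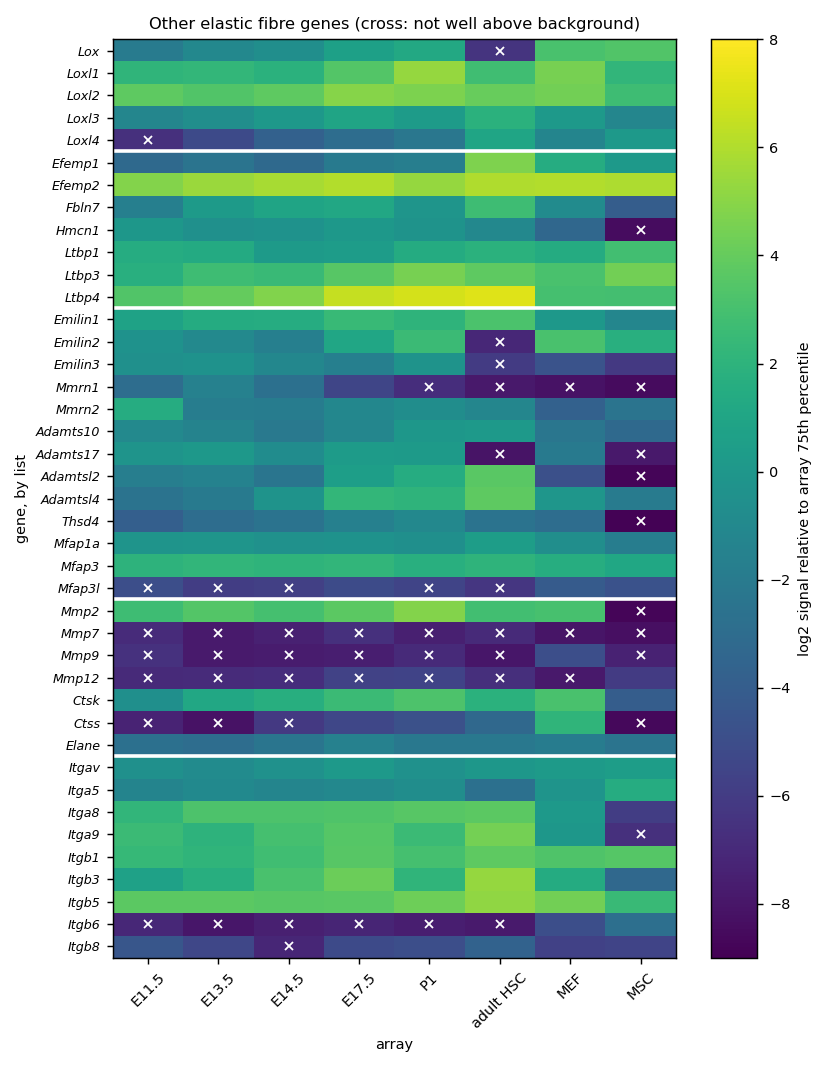
Levels of the other listed genes on the 8 arrays, as log2 signal relative to the array's 75th percentile on the colour scale. White lines separate cross-linking enzymes, other fibulins and latent TGF-beta binding proteins, emilins with ADAMTS-type and Mfap genes, elastases and receptors. Crosses mark values not well above background. Lox, Emilin2, Emilin3 and Adamts17 carry a cross in adult HSC, where Efemp1 and Ltbp4 are at 4.72 and 7.14.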

How the data were processed

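RNA of 8 mouse cell populations was measured on 1 one-colour Agilent array each. The intensity values are background-subtracted, spatially detrended spot signals from Agilent Feature Extraction 11.5.1.1, per the file headers, and arrays were not normalized to each other. The deposited log2 table of the authors holds the same signals relative to each array's 75th percentile, and is not centred per gene. After a constant offset of -0.103 to -0.150 per array, 93.2% (MSC), 96.7% (E14.5) and 100% (the other arrays) of its values matched within 0.02, and its column medians were between -4.48 and -3.55. It served as an alternative. The reason for the offset is not known.

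Control and outlier spots were dropped, log2 signals were set relative to the 75th percentile, and repeated spots were averaged per probe. Names came from the transcript accession in a RefSeq gene table (GRCm38.p6), which named 67.4% of 39429 probes. The array's own annotation rests on another build, so no gene positions were taken from it. The brightest probe stands for a gene. Genes whose probe was well above background on 1 or more of the arrays compared were fitted with limma 3.58.1 in R 4.3.3 (lmFit, eBayes, two-sided, Benjamini-Hochberg adjustment over all genes fitted, threshold 0.05). No array is a replicate of another. The p-values of the slope therefore set it against the departures of the 5 arrays from a straight line. Those of the liver comparison set the difference against the spread of unlike arrays within each side. Pairs of arrays have no test and are counted at 4-fold. For a probe below background on the dimmer array, a fold is a bound ("at least") from the weakest signal there that was well above background. Alternatives were median and quantile normalization, normexp with an offset of 50 on median spot brightness (the mean was not used here), filters, the mean of probes, other probes, a floor, the authors' table, slide, arrays left out and, added after seeing the data, a trended robust prior.

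The 10 members and all lists were chosen with earlier results of these data known. The members were all named, up to 2 genes of each pathway list with the largest slopes or differences were named, and for Eln, Fbn1 and Fbn2 the 3 genes with the highest Pearson correlation were named. Loxl1 was named besides these. Adamtsl5 was not analysed here.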

Additional observations from a re-analysis of the deposited data

How the results depend on the processing

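Every array is a group of its own. No paired analysis was possible because each group has 1 array. Among all genes, the 259 calls between liver and other arrays became 51 with normexp, 157 with genes above background on every array, 74 with slide as a block and 0 on the second slide alone (limma; 1445 genes at an unadjusted p under 0.05). Leaving out 1 array gave 82 (without E17.5) to 1277 (without MEF), with 93, 89, 167 and 524 without E13.5, E14.5, P1 and adult HSC. The 0 calls of the stage slope became 103 with quantile normalization, 678 with genes above background on every array and 1152 with the trended robust prior, and stayed 0 with each array left out. Genes 4-fold apart numbered 590 with normexp and 1116 with the every-array filter in place of 2072 (P1 and E11.5), 1036 and 1488 in place of 3146 (adult HSC and P1), and 825 and 1252 in place of 2872 (MSC and MEF). Of genes 4-fold apart between adult HSC and P1, 24.7% were higher in adult HSC, and 48.5% with median normalization, which moved the median of all genes from -0.06 to 0.73. For MSC and MEF the share was 16.9% and 37.4%, with a median of 0.05 and 0.67. For the liver comparison it was 53.7%, 70.6% with normexp, 44.0% with median normalization and 23.8% without MSC, and the median of all genes, 0.02, became 0.35 and -0.35 with the first 2.

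For the 10 genes, the 6 that were 4-fold higher at P1 and the 8 that were 4-fold lower in adult HSC numbered the same under all 6 other ways of computing the levels, and the 6 that were lower in MSC became 5 with median normalization. With its other probe in place of the brighter one, Fbln5 was not 4-fold higher at P1, at 1.78. The Fbln5 difference between liver and other arrays, -0.58, turned to 0.93 with slide as a block and on the second slide alone and to 0.42 with its other probe. Leaving out 1 array gave ranges that cross 0 for Fbln5 (-1.82 to 0.65), Fbln1 (-1.04 to 0.50), and, without MSC, for Eln (-2.25 to 5.05), Fbn1 (-1.06 to 1.99), Fbn2 (-1.51 to 7.75), Mfap2 (-0.33 to 7.88) and Mfap4 (-1.35 to 9.61). The slope of Fbln2 turned to 0.0096 with quantile normalization and 0.15 with normexp, and ranged from -0.37 to 0.081 with 1 array left out. That of Fbn2 was -0.074 on the first slide alone and -0.074 to 0.20 with 1 array left out. With the trended robust prior, limma called Ltbp2 (adjusted p = 0.0233), Eln (0.0304), Fbn1 (0.0304) and Mfap5 (0.0489). The causes of these changes were not tested.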

Other observations

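Adult HSC and MSC, the adult populations that hold the lowest level of 9 of the 10 genes (51% of all genes are lowest in one of the 2), were low in different members. Fbln2 was 1709-fold, Ltbp2 724-fold and Fbln1 59.1-fold higher in MSC than in adult HSC, and Mfap5 at least 88.1-fold higher. With normexp these were 464-fold, 137-fold, 10.96-fold and 9.37-fold. Mfap2 was 11.2-fold, Eln 10.01-fold and Fbln5 4.36-fold lower in MSC. Fbn2 and Mfap4 differed by 1.11-fold and 1.75-fold, both being low in the 2 populations, and Fbn1 was 3.70-fold lower in MSC. With normexp Mfap2 was 4.82-fold and Eln 2.17-fold lower.

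The adult HSC array was also set against E11.5, and the members differed in both directions. Compared with E11.5, Fbln5 was 60.1-fold, Eln 2.64-fold and Fbn1 2.21-fold higher in adult HSC, whereas Mfap4 was 722-fold, Fbn2 625-fold, Fbln2 158-fold, Fbln1 93.6-fold and Mfap2 31.04-fold lower. Mfap5 was at least 17.9-fold and Ltbp2 2.25-fold lower. With normexp Eln was 1.23-fold higher, and Mfap4 80.2-fold, Fbn2 58.3-fold, Fbln2 40.5-fold, Fbln1 15.2-fold, Mfap5 2.74-fold and Ltbp2 1.44-fold lower. These arrays lie on different slides, so slide cannot be told apart from age and sort. None of these values has a test.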
